A study of Mus musculus with 6 samples.

Results

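Liver RNA was examined for 9 genes of antigen presentation, the class II genes H2-Aa, H2-Ab1, H2-Eb1, H2-DMa, Cd74 and Ciita and the class I genes H2-K1, H2-D1 and B2m. They were chosen by name, with earlier results of these data known, and found by their symbols. Each was 1 row of the 45777 genes listed in the count table. All 9 had reads in all 6 libraries and were among the 17274 genes tested. Both groups were male C57BL/6 mice fed a high-fat diet (HFD), with 1 whole-liver library per mouse and 3 mice per group. The littermates (LT) carried 2 floxed alleles of Fpn (Slc40a1), labelled WT (Fpn f/f). The second group carried the same alleles and Alb-Cre, a recombinase under the albumin promoter, labelled LKO (hepatocyte-specific Fpn KO) and called Fpn-LKO here. The floxed allele came from 129S stock and the line was backcrossed to C57BL/6J. The labels give no age, and the methods start the diet at 8 weeks. Since LT mice carried no Cre, the recombinase itself and the deletion cannot be told apart. The total counts per library lay between 43086184 and 47778683, and all libraries carry the label of batch 1.

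MHC molecules hold peptides at the cell surface for T cells to inspect. Class I molecules, a heavy chain such as H2-K1 or H2-D1 joined to B2m, are made by nearly all nucleated cells and carry peptides from the cytosol. Class II molecules, pairs such as H2-Aa and H2-Ab1, are made mainly by macrophages, dendritic cells and B cells and carry peptides from endosomes, and in the liver Kupffer cells are among the cells that make them. The invariant chain Cd74 guards the class II groove, H2-DMa belongs to the editor that loads peptide, and Ciita is the coactivator that the class II promoters require.

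The class II genes differed up to 2.70-fold between single livers, but the groups overlapped for all 6. The class I genes varied little within a group and had higher means in livers labelled Fpn-LKO, without passing the test. Tested by the quasi-likelihood method of edgeR, with the Benjamini-Hochberg adjustment over all 17274 genes, 0 of the 9 members passed an adjusted p of 0.05, where 0.0232% of all genes did. At an unadjusted p under 0.05, 1 of the 9 passed, B2m, where 4.80% of all genes did. The unadjusted count was 2 of 9 by DESeq2, where 5.22% of all genes passed, and 1 of 9 by exactTest, where 4.62% did. After adjustment 0 of 9 passed by DESeq2, where 0.417% of all genes did, and 0 of 9 by exactTest, where 0.365% did. The log2 fold change was positive for 7 of the 9 and negative for 2, with a median of 0.27 beside -0.004 over all genes tested. The median was 0.09 for the class II and 0.29 for the class I members. Each fold change below is the libraries labelled Fpn-LKO over LT.

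The deleted gene was examined first. Slc40a1, the iron exporter ferroportin, had 154, 180 and 126 CPM (read counts relative to the TMM-scaled library size) in LT livers 1 to 3, against 143, 143 and 176 in livers labelled Fpn-LKO. The log2 fold change was 0.01 (standard error 0.16, adjusted p = 0.995 by edgeR). The count was not lower in the latter group, so every direction rests on the labels. The count covers the whole gene, exons outside a deleted part included.

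The stretches upstream of 4 members are shown because they hold sites of the kinds known to control each class. The part of these sites in how the genes varied across livers was not tested. Each is the 250 bases before a transcript start (RefSeq, GRCm38.p6, read on the gene's strand, 5′ to 3′). For H2-Aa (chr17:34287824-34288073, minus strand) and H2-Eb1 (chr17:34305617-34305866, plus strand), the capitals mark GCAAC, the core bound by RFX proteins, followed by the Y box CTGATTGG, bound by NF-Y.
H2-Aa: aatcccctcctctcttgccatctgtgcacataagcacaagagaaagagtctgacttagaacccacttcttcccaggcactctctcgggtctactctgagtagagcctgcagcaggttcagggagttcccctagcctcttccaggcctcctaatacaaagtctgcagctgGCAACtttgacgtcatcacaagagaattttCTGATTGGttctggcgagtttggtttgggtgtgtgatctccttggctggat
H2-Eb1: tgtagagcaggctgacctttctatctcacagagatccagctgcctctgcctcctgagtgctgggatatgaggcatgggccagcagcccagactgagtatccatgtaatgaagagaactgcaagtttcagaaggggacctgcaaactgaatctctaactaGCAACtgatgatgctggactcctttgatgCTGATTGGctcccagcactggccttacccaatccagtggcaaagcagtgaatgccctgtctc

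The Y box began 51 bases before the start in H2-Aa and 62 in H2-Eb1, and the cores began 30 and 29 bases ahead of it. On both strands, CTGATTGG occurred in 3.83% of the 32851 windows of this length and GCAAC in 29.9%. The pair in this order within 50 bases on 1 strand occurred in 0.164%. A match is a description of letters only.

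For H2-D1 (chr17:35262844-35263093, plus strand) and B2m (chr2:122147437-122147686, plus strand), capitals mark an NF-κB site and interferon-response letters. In H2-D1 these are the palindromic NF-κB site and then TTTCNNTTC. In B2m they are an interferon-stimulated response element read on the opposite strand, whose central pair may be any bases.
H2-D1: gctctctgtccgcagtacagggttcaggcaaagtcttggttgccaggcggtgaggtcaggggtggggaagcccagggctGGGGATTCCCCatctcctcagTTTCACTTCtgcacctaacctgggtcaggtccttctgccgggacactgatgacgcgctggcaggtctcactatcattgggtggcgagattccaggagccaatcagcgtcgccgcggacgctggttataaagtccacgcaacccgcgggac
B2m: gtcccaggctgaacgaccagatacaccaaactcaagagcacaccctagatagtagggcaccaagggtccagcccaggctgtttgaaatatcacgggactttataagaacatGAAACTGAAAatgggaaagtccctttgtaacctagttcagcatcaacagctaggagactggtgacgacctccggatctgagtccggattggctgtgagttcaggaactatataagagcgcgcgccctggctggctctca

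The NF-κB site with these letters was also found upstream of H2-K1, beginning 111 or 125 bases before its start for its 2 listed starts, and in 10 of all 32851 windows, or 0.0304%. TTTCNNTTC occurred in 6.31% of windows and the longer element of B2m in 2.98%. H2-D1 also held CTGATTGG on its opposite strand, without the core within 50 bases ahead of it on that strand. Windows were found for 6 of the 9 members, and Cd74, Ciita and H2-Ab1 had none. H2-DMa had windows for 2 starts, and neither held CTGATTGG. Its only match was GCAAC on the opposite strand of 1 of them, so the pair was found in 2 of the 3 class II members with a window.

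Levels were compared between genes per transcript length, as TPM (the length-scaled share of a library's transcripts). B2m had the highest mean over the 6 libraries, 1581 TPM, followed by H2-K1 with 553 and H2-D1 with 186 TPM. The class II genes followed, with 35.3 TPM for Cd74, 31.2 for H2-Aa, 14.98 for H2-Ab1 and 13.1 for H2-Eb1. H2-DMa had 0.674 TPM and Ciita 0.436 TPM. The ranges over libraries of B2m, H2-K1 and H2-D1 did not overlap each other, whereas Cd74 (22.2 to 48.5 TPM) overlapped with H2-Aa (19.6 to 49.8 TPM), as did H2-Ab1 (9.78 to 20.7 TPM) with H2-Eb1 (7.55 to 20.3 TPM) and H2-DMa (0.400 to 0.982 TPM) with Ciita (0.255 to 0.660 TPM). H2-Q10, a secreted class I molecule of hepatocytes, had 664 TPM.

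Among the class II chains, H2-Aa (chromosome 17, 34282744 to 34287823), the alpha chain of the molecule I-A, had 31.7, 17.6 and 19.8 CPM in LT livers 1 to 3, against 33.9, 15.7 and 42.5 in livers labelled Fpn-LKO. In CPM, replicates 1 and 3 of Fpn-LKO lay above every LT library and replicate 2 lay below every one. In TPM, LT livers had 39.5, 19.6 and 20.2 and livers labelled Fpn-LKO 37.2, 20.9 and 49.8. Only replicate 3 of Fpn-LKO then lay above every LT library, and replicate 2 lay among them. Group means were 23.04 ± 7.57 and 30.7 ± 13.6 CPM (SD, n = 3 each). The log2 fold change was 0.41 (standard error, SE, 0.37, 95% interval from -0.45 to 1.28, adjusted p = 0.985 by edgeR). The depth was 735 to 1970 reads per library, so counting error was small beside this spread.

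H2-Ab1 (chromosome 17, 34263227 to 34269418), its beta chain partner, had 17.6, 12.3 and 10.2 CPM in LT livers, against 17.0, 7.82 and 17.2 in livers labelled Fpn-LKO. The highest CPM was in an LT library and the lowest in a Fpn-LKO library. In TPM the lowest values, of LT replicate 3 (9.779) and Fpn-LKO replicate 2 (9.789), were nearly equal. The log2 fold change was 0.07 (standard error 0.33, 95% interval from -0.70 to 0.84).

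H2-Eb1 (chromosome 17, 34305867 to 34316674), the beta chain of the molecule I-E, had 18.6, 10.1 and 12.4 CPM in LT livers, against 21.6, 11.4 and 25.7 in livers labelled Fpn-LKO. Replicates 1 and 3 of Fpn-LKO again lay above every LT library, and replicate 2 lay among them. The log2 fold change was 0.51 (standard error 0.33, 95% interval from -0.27 to 1.29, adjusted p = 0.982 by edgeR). C57BL/6 mice do not make the alpha chain of I-E, and H2-Ea, listed as H2-Ea-ps, had 0 reads in all 6 libraries, which allows up to 0.0603 to 0.0725 CPM per library (counting error only).

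Cd74 (chromosome 18, 60803849 to 60812652), the invariant chain, had 44.3, 30.9 and 25.2 CPM in LT livers, against 39.5, 22.5 and 46.0 in livers labelled Fpn-LKO. Group means were 33.5 ± 9.81 and 36.0 ± 12.1 CPM (SD, n = 3 each). Its log2 fold change was 0.10 (standard error 0.30, 95% interval from -0.59 to 0.80). In CPM the high and low livers of Cd74 were those of H2-Ab1: LT replicate 1 and Fpn-LKO replicates 1 and 3 were high, and Fpn-LKO replicate 2 was lowest. In TPM the lowest for Cd74 was LT replicate 3 (22.2), below Fpn-LKO replicate 2 (25.8).

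**Figure D1:**
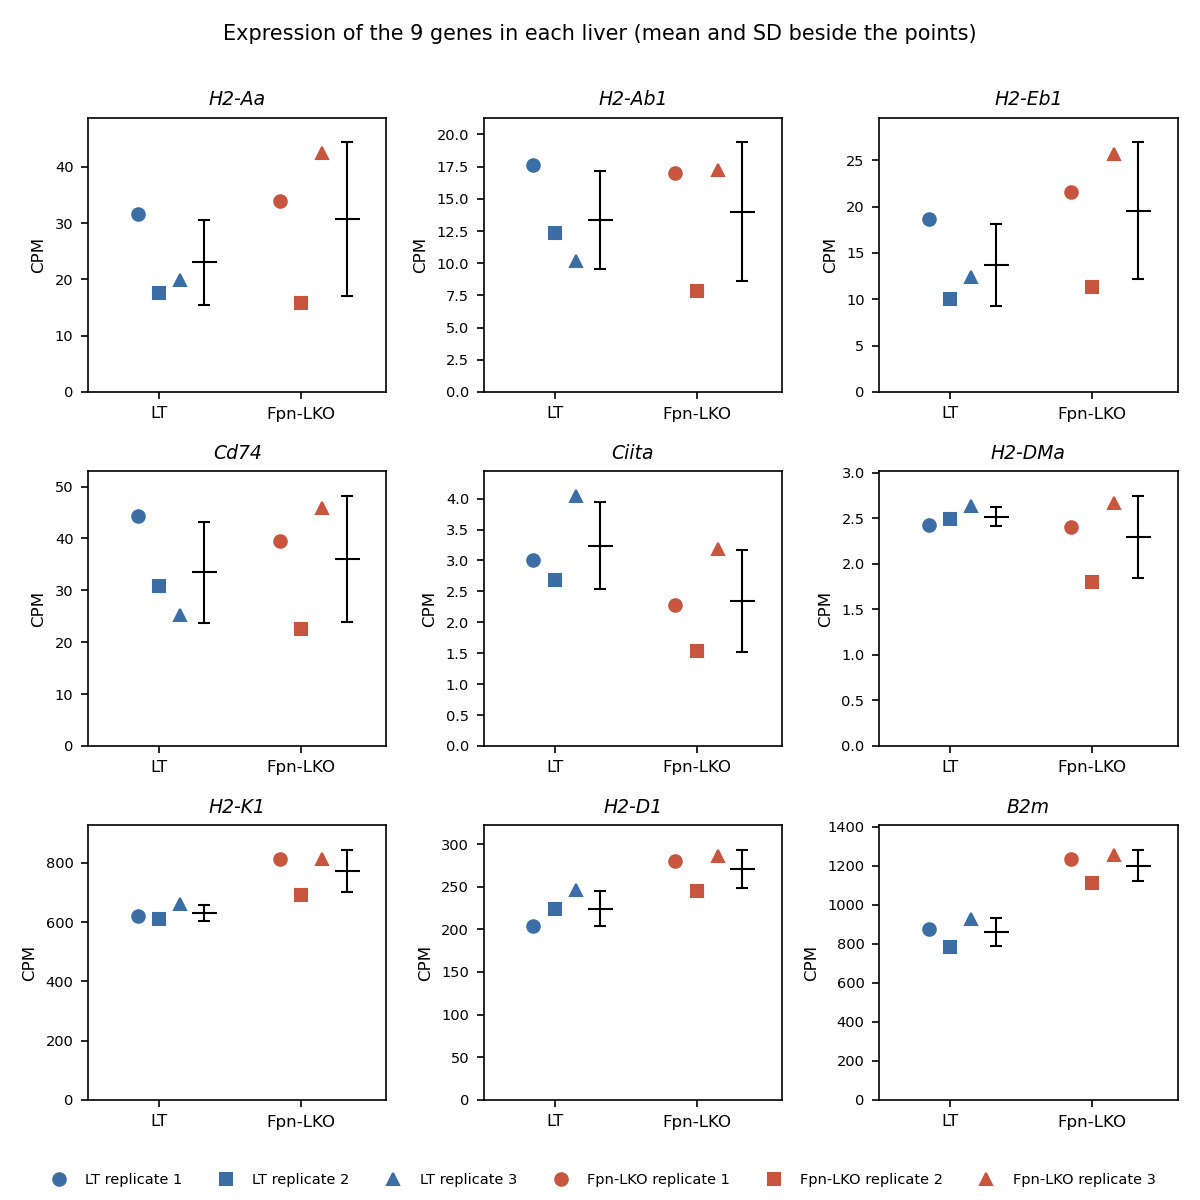
Expression of the 9 genes in CPM (vertical axis, from 0) in LT and Fpn-LKO livers (horizontal axis), with 1 point per library, the marker shape giving the replicate and the black bar the mean and SD of 3. H2-Aa, H2-Ab1, H2-Eb1 and Cd74 overlap between the groups, while B2m and H2-K1 lie higher in all 3 libraries labelled Fpn-LKO.

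Ciita (chromosome 16, 10480014 to 10531064) had 3.01, 2.68 and 4.04 CPM in LT livers, against 2.29, 1.54 and 3.19 in livers labelled Fpn-LKO, from 72 to 167 reads. Its mean was the lower one in Fpn-LKO, with a log2 fold change of -0.47 (standard error 0.32, 95% interval from -1.23 to 0.29, adjusted p = 0.982 by edgeR). In CPM its highest liver was LT replicate 3, which had the lowest LT values of H2-Ab1 and Cd74. In TPM, Ciita had 0.660, 0.394 and 0.519 in LT livers 1 to 3. Its highest LT liver was then replicate 1, as for H2-Ab1 and Cd74, so the order of Ciita within LT depended on the measure. Its lowest LT liver, replicate 2, was also the lowest LT liver for H2-Aa and H2-Eb1. Within Fpn-LKO the order was the same for Ciita, H2-Aa, H2-Ab1, H2-Eb1 and Cd74, highest in replicate 3 and lowest in replicate 2. Its gene model overlaps Dexi and LOC115488669.

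H2-DMa (chromosome 17, 34119693 to 34139101) had 2.43, 2.49 and 2.63 CPM in LT livers, against 2.41, 1.80 and 2.67 in livers labelled Fpn-LKO (a log2 fold change of -0.13, SE 0.25, 95% interval from -0.71 to 0.44). The groups overlapped, and Fpn-LKO replicate 2 was again lowest. Its gene model overlaps Brd2, so with 84 to 124 reads its count is uncertain. Counts and TPM also disagreed for it: LT replicate 3 and Fpn-LKO replicate 3 had 2.63 and 2.67 CPM but 0.400 and 0.982 TPM.

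The 4 abundant class II genes varied together across livers. Their summed CPM was 112, 70.9 and 67.6 in LT and 112, 57.4 and 131 in livers labelled Fpn-LKO, which overlapped (exact two-sided permutation test, p = 0.9). The within-group SD of log2 CPM was 0.62 for H2-Aa, 0.54 for H2-Ab1, 0.54 for H2-Eb1 and 0.48 for Cd74, where the median of 12554 genes with a mean of at least 1 CPM was 0.23. It was 0.11 for H2-K1, 0.13 for H2-D1 and 0.11 for B2m. Thus 86.3% to 92.3% of genes had a smaller spread than these class II genes, and 10.9% to 17.9% a smaller one than the class I genes.

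The genes nearest in profile to the mean of H2-Aa, H2-Ab1 and H2-Eb1 were sought by the root-mean-square difference of centred log2 CPM over the 6 libraries, among 8995 genes with a mean of at least 5 CPM. Cd74 ranked 2nd, with a difference of 0.16. Capza1, an actin capping subunit, ranked 1st (0.13), with 30.5, 19.6 and 17.7 CPM in LT livers, against 29.5, 18.2 and 34.1 in livers labelled Fpn-LKO. Klf6 (0.21) and Pparg (0.24), both transcription factors, and Gm17753 (0.25) came next. B2m ranked 965th for this profile (0.42).

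**Figure D2:**
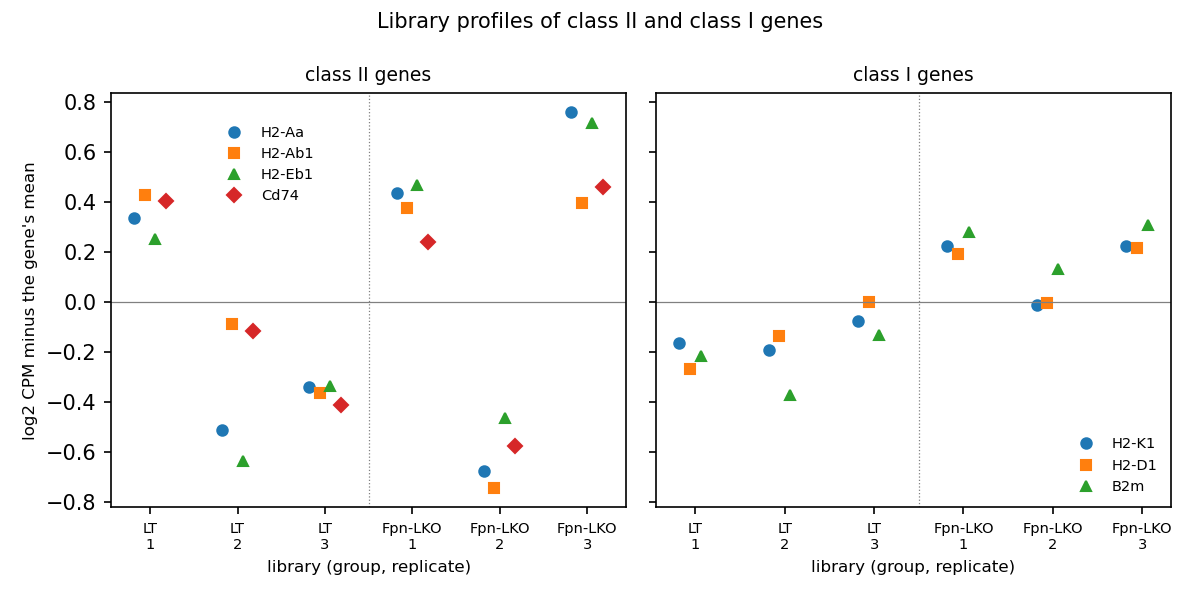
Centred log2 CPM (vertical axis, each gene's value minus its mean over 6 libraries) in each library (horizontal axis, LT left of the dotted line), for 4 class II genes and 3 class I genes, with 1 marker shape per gene. The class II genes are all below their means in Fpn-LKO replicate 2, and the class I genes sit in a narrower range, with B2m above its mean in all 3 libraries labelled Fpn-LKO.

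Cells that make class II molecules were read from marker lists. In whole liver, fewer cells of a type and less RNA per cell cannot be told apart. The 12 Kupffer cell and macrophage markers summed to 403, 517 and 415 CPM in LT and to 427, 346 and 766 CPM in livers labelled Fpn-LKO (exact two-sided permutation test, p = 0.8). Of the 12, 10 had a positive and 2 a negative log2 fold change, with a median of 0.23. Clec4f, a Kupffer cell lectin, had 0.08, Cd5l had -0.03 and Lyz2, a lysozyme, had 0.73 (SE 0.35). Of these 12 genes, 0 had an unadjusted p under 0.05 by edgeR, and 0 passed the adjustment by edgeR, DESeq2 or exactTest. Lyz2 had an unadjusted p of 0.0272 by DESeq2 and 0.0451 by exactTest. Fpn-LKO replicate 3 was highest for these markers and for the class II sum, and Fpn-LKO replicate 2 was lowest for both, but LT replicate 2 was second for the markers and had a low class II sum. Per macrophage marker CPM, the class II sum was 0.278, 0.137 and 0.163 in LT and 0.263, 0.166 and 0.172 in livers labelled Fpn-LKO, so LT replicate 1 and Fpn-LKO replicate 1 had the high ratios. The part of macrophage number in the class II differences was not tested.

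Dendritic cell markers were low, and their sum of 11.99 to 18.5 CPM came mostly from Zbtb46 (6.31 to 12.4 CPM), which endothelial cells also express. Itgax, the integrin CD11c, had 0.402, 0.554 and 0.411 CPM in LT livers, against 2.81, 0.493 and 1.16 in livers labelled Fpn-LKO, the highest in Fpn-LKO replicate 1 (log2 fold change 1.70, SE 0.63, edgeR adjusted p = 0.982). Clec9a had 1.04 to 3.02 CPM (log2 fold change 0.03, SE 0.42), while Xcr1 and Flt3 had at most 0.107 and 0.369 CPM. Of the 7 dendritic cell markers tested, 4 had a positive and 3 a negative log2 fold change, with a median of 0.03. Zbtb46 had -0.28, and Itgax was the only 1 with an unadjusted p under 0.05 by edgeR, where 4.80% of all genes had one. The B cell markers summed to 3.598 to 13.9 CPM, mostly from Ighm (2.74 to 12.1 CPM), while Ms4a1 had at most 0.369 CPM. LT replicate 2 had the highest sum of both lists, and its class II sum of 70.9 CPM was below the mean of its group. The T and NK cell markers summed to 1.39, 5.13 and 4.18 CPM in LT livers, against 1.07, 0.214 and 2.03 in livers labelled Fpn-LKO. Most of this was Cd4 in LT replicates 2 and 3, with 0.121, 3.81 and 3.601 CPM in LT livers, against 0.335, 0.214 and 0.366 in livers labelled Fpn-LKO. Cd4, which Kupffer cells and dendritic cells can also express, overlapped between the groups (log2 fold change -3.02, SE 1.02, edgeR adjusted p = 0.982, DESeq2 adjusted p = 0.0774). The neutrophil markers summed to 1.20 to 2.39 CPM. Cd3e, Cd8a and Ncr1 had 0 reads in at least 3 libraries each, and the neutrophil genes Ly6g and Mpo in all 6.

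**Figure D3:**
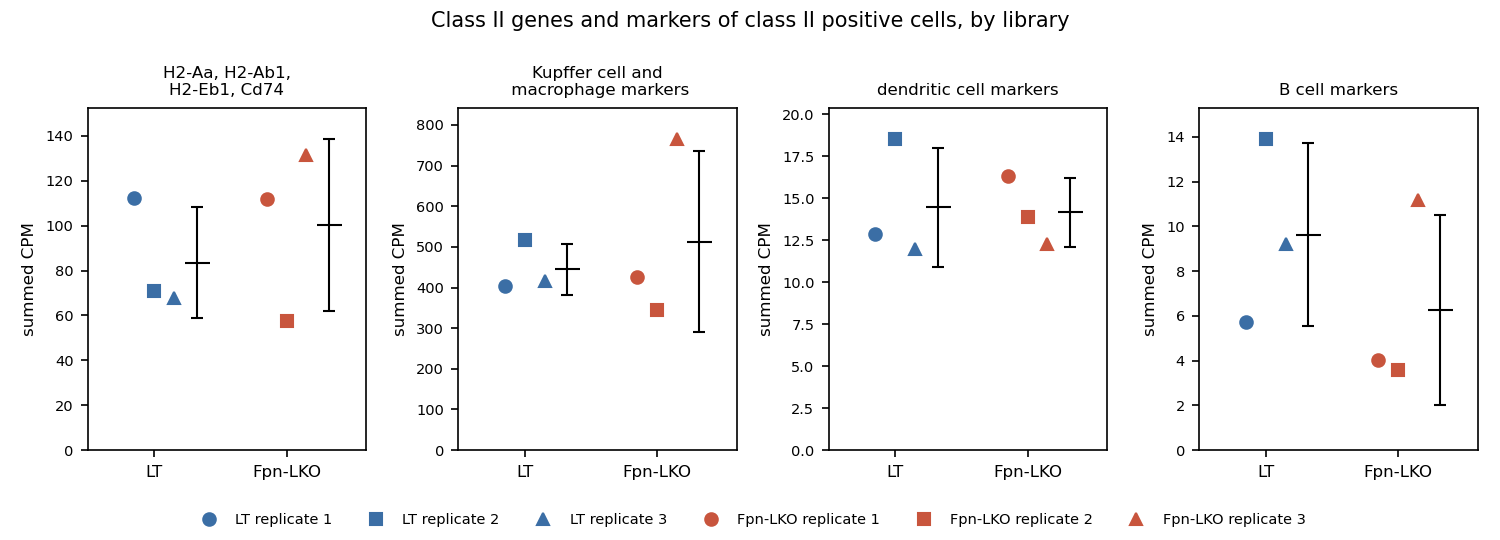
Summed CPM (vertical axes, from 0) of 4 class II genes and of 3 lists of cell markers in LT and Fpn-LKO livers, with 1 point per library and the mean and SD of 3 as black bars. Fpn-LKO replicate 3 is highest for the class II genes (131 CPM) and the macrophage markers (766 CPM), and the groups overlap in every panel.

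The 7 transcription factors listed as binding the class II promoter did not pass by edgeR, DESeq2 or exactTest. Of them 0 had an unadjusted p under 0.05, and their median log2 fold change was -0.04. Higher without overlap was 1 of the 7, where 5.25% of all genes tested were so. This was Rfxap, a subunit of the RFX complex, with 3.77 ± 0.189 and 4.66 ± 0.567 CPM (SD, n = 3 each). Rfx5 and Rfxank, its other subunits, overlapped, with log2 fold changes of 0.04 and 0.08. Nfya, Nfyb and Nfyc, which form NF-Y, had -0.04, -0.21 and -0.06. Of the other class II genes, H2-DMb1, the partner of H2-DMa, had 3.45 ± 0.252 and 3.47 ± 0.838 CPM (SD, n = 3 each) and a log2 fold change of 0.01. H2-Ob was below 1 CPM in every library, and H2-Oa, H2-Eb2 and H2-DMb2 were not tested, having 0 reads in more than 1 library.

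Among the 7 genes of endosomal processing, 6 had a positive log2 fold change, with a median of 0.24. Ctsl, a cathepsin, had 390 ± 51.2 CPM in LT livers, against 513 ± 77.9 in livers labelled Fpn-LKO (SD, n = 3 each). Ctsb had 295 ± 13.9 and 363 ± 22.6 CPM (SD, n = 3 each). Neither overlapped between the groups, which made 2 of the 7 higher without overlap, where 5.25% of all genes tested were so. Their unadjusted p-values were 0.0473 and 0.0358 by edgeR, with adjusted p = 0.982 for each. Both cathepsins are lysosomal proteases of many cell types, hepatocytes included. Ctss, the cathepsin of antigen-presenting cells that trims Cd74, had 32.7, 29.9 and 33.1 CPM in LT livers, against 34.6, 22.2 and 51.1 in livers labelled Fpn-LKO, with replicates 2 and 3 of Fpn-LKO at the extremes, as for the macrophage markers.

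In class I, B2m (chromosome 2, 122147687 to 122153082), the light chain of all class I molecules, had 875, 786 and 927 CPM in LT livers, against 1235, 1114 and 1258 in livers labelled Fpn-LKO. Every Fpn-LKO library lay above every LT library. Group means were 863 ± 71.3 and 1202 ± 77.5 CPM (SD, n = 3 each). On the log2 scale the difference was 0.48 (standard error 0.15, unadjusted 95% interval from 0.14 to 0.82). The unadjusted p was 0.0120 and the adjusted p was 0.982 by edgeR, 0.0652 by DESeq2 and 0.672 by exactTest, so B2m did not pass. The exact two-sided permutation test gave p = 0.1, the smallest that 3 against 3 allows. The gene model of B2m overlaps that of Patl2.

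H2-K1 (chromosome 17, 33996012 to 34000619) had 621, 610 and 661 CPM in LT livers, against 812, 690 and 812 in livers labelled Fpn-LKO, again without overlap. The log2 fold change was 0.29 (standard error 0.14, 95% interval from -0.03 to 0.61, adjusted p = 0.982 by edgeR). H2-D1 (chromosome 17, 35263094 to 35267497) had 204, 224 and 246 CPM in LT livers, against 281, 245 and 285 in livers labelled Fpn-LKO, so that LT replicate 3 and Fpn-LKO replicate 2 were nearly equal in CPM. In TPM, H2-D1 had 165, 161 and 163 in LT livers, against 200, 211 and 217 in livers labelled Fpn-LKO, without overlap. The share of all genes without overlap in TPM was not taken for H2-D1. Its log2 fold change was 0.27 (standard error 0.13, 95% interval from -0.03 to 0.57). Higher without overlap in CPM were 2 of the 3 class I members and 0 of the 6 class II members, where 5.25% of all genes tested were so. Lower without overlap in CPM were 0 of the 9, where 5.34% of all genes were.

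Reads of the heavy chains can be split between near-identical genes. The longest transcript of H2-D1 matched H2-K1 at 90.6% identity over 1404 of its 2102 bases, and that of H2-K1 matched H2-Q4 at 91.4% over 945 of 1619 bases. No match at 90% or more over at least 100 bases in another gene was found for B2m or the 6 class II members. Summed over H2-K1 and H2-D1, the values were 825, 833 and 907 CPM in LT livers, against 1093, 935 and 1097 in livers labelled Fpn-LKO (exact two-sided permutation test, p = 0.1). Over 12 H2-K, H2-D, H2-Q and H2-T genes they were 1823, 1782 and 1932 CPM in LT livers, against 2341, 1834 and 2040 in Fpn-LKO, which overlapped (exact two-sided permutation test, p = 0.2).

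Ratios within a library, in TPM, compared members that form complexes. B2m exceeded the heavy chains in every library. The ratio of H2-K1 to B2m was 0.367, 0.400 and 0.368 in LT and 0.340, 0.320 and 0.333 in livers labelled Fpn-LKO. The groups did not overlap, nor did they for H2-D1 over B2m, with means of 0.129 ± 0.0128 and 0.111 ± 0.00202 (SD, n = 3 each). H2-Aa over H2-Ab1 was higher without overlap, at 1.83 ± 0.285 in LT and 2.29 ± 0.282 in livers labelled Fpn-LKO (SD, n = 3 each). For each of these 3 ratios the exact two-sided permutation test gave p = 0.1, the smallest possible, or 0.2 adjusted over the 6 pairs compared. The pairs were chosen after their values were seen, which the adjustment does not cover. The ratios of H2-K1 and H2-D1 share B2m, so they are not independent. Cd74 over H2-Aa, H2-DMa over H2-DMb1 and H2-K1 over H2-D1 overlapped.

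The profile nearest to H2-K1 and H2-D1 was that of Vps29, a retromer subunit, with a difference of 0.03 (24.6, 24.4 and 27.0 CPM in LT livers, against 31.1, 27.4 and 31.5 in livers labelled Fpn-LKO). Pycrl, Ttc1, Sirt2 and Wdr70 came next, with 0.04 to 0.05. B2m ranked 283rd (0.12).

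Of 14 other class I genes tested, 0 passed by edgeR, DESeq2 or exactTest. By edgeR 1 of the 14 had an unadjusted p under 0.05, where 4.80% of all genes did. That gene was H2-T10, with 5.46 ± 1.23 CPM in LT livers, against 8.32 ± 1.24 in livers labelled Fpn-LKO (SD, n = 3 each; log2 fold change 0.61, SE 0.22, edgeR adjusted p = 0.982). Its groups did not overlap. Mr1, which presents vitamin metabolites, was also higher without overlap (log2 fold change 0.56, standard error 0.27). That made 2 of the 14, where 5.25% of all genes tested were higher without overlap. H2-Q10 had 781, 706 and 740 CPM in LT livers, against 957, 663 and 649 in livers labelled Fpn-LKO, with a log2 fold change of 0.03. H2-Q4, H2-Q6 and H2-Q7 had -0.19, -0.09 and -0.30, and all 3 overlapped. Fcgrt and Hfe, class I relatives that bind IgG and regulate iron uptake, had -0.01 and 0.09. The median of the 14 was 0.05.

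**Figure D4:**
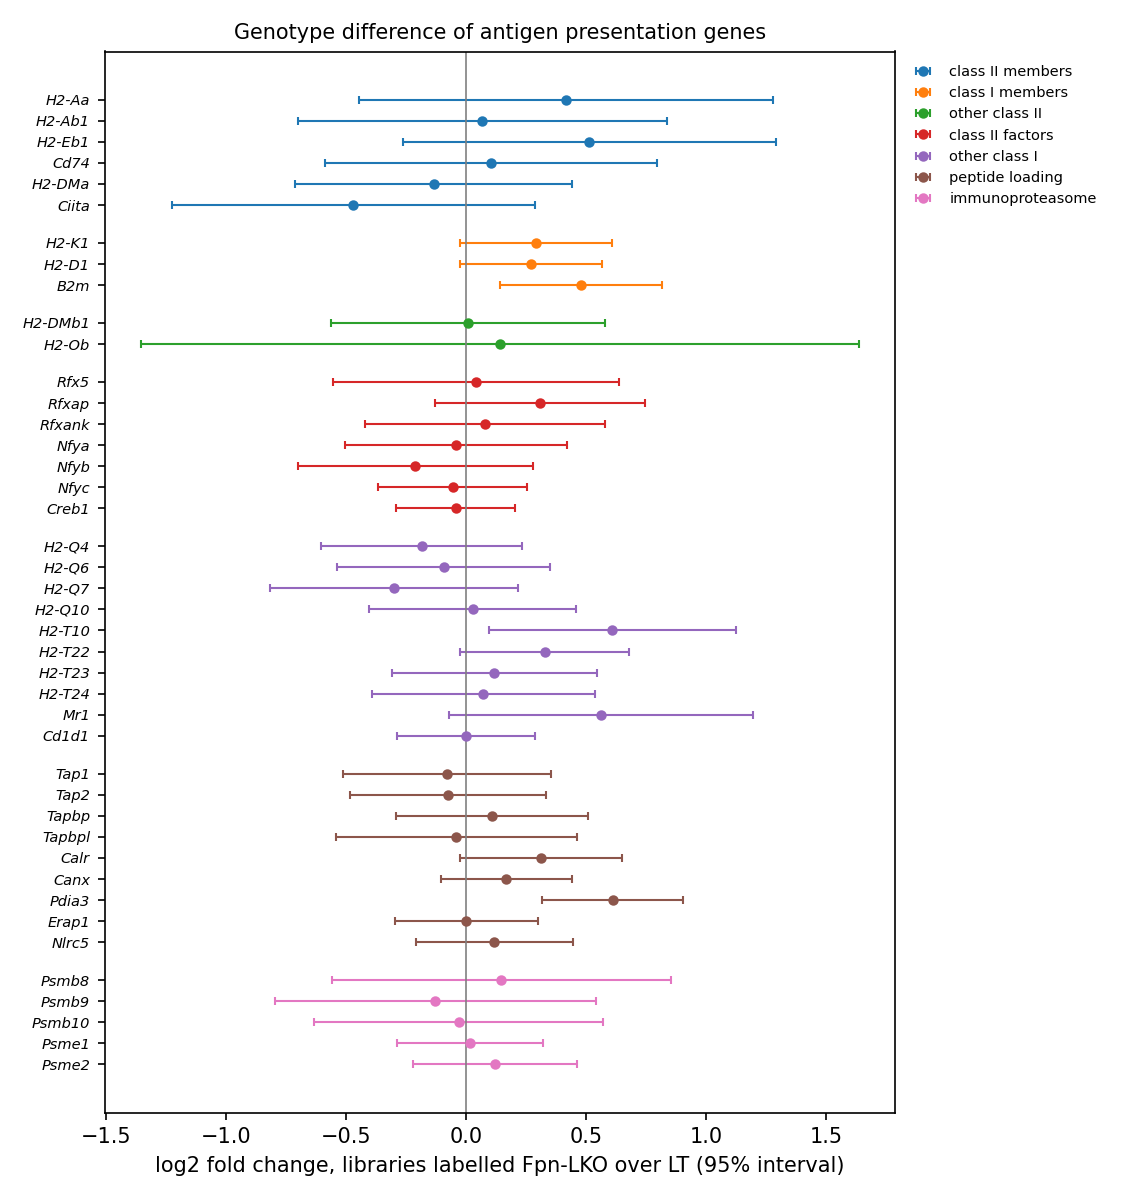
Log2 fold change of each gene (horizontal axis, libraries labelled Fpn-LKO over LT, with bars for the unadjusted 95% interval), grouped and coloured by role. The intervals of B2m, H2-T10 and Pdia3 lie above 0, those of the class II genes all cross it, and no gene shown had an adjusted p under 0.05 by edgeR.

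None of the 9 genes listed for class I loading passed by edgeR. By edgeR 1 of the 9 had an unadjusted p under 0.05 (Pdia3), where 4.80% of all genes did. Tap1 and Tap2, the peptide transporter, had log2 fold changes of -0.08 each, and Tapbp, the tapasin that bridges them to the heavy chain, had 0.11. Erap1, which trims peptides, had 0.00, and Nlrc5, the class I counterpart of Ciita, had 0.12. Higher without overlap were 3 of the 9 loading genes, where 5.25% of all genes tested were so, and the others overlapped. These were Pdia3, Calr and Canx, all 3 of them being general folding factors of the endoplasmic reticulum. Pdia3 had 175, 176 and 196 CPM in LT livers, against 245, 295 and 296 in livers labelled Fpn-LKO (a log2 fold change of 0.61, SE 0.13). Its adjusted p was 0.590 by edgeR and 0.00673 by DESeq2. Calr had 560 ± 56.1 and 695 ± 62.2 CPM and Canx 456 ± 16.5 and 512 ± 14.2 CPM (SD, n = 3 each). The immunoproteasome subunits, Psmb8, Psmb9 and Psmb10 with the activators Psme1 and Psme2, had log2 fold changes from -0.13 to 0.15, and all 5 overlapped. Of these 5, 0 passed by edgeR, DESeq2 or exactTest, and 0 had an unadjusted p under 0.05.

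Interferon gamma is the classical inducer of both classes. Ifng was at 0 reads in 5 of the 6 libraries. Of 11 genes of its pathway tested, 0 passed by edgeR, and their median log2 fold change was 0.07. By edgeR 2 of the 11 had an unadjusted p under 0.05, where 4.80% of all genes did. Higher without overlap were 2 of the 11, where 5.25% of all genes tested were so. Igtp, an interferon-induced GTPase, had 14.3, 14.96 and 12.8 CPM in LT livers, against 38.7, 29.3 and 19.0 in livers labelled Fpn-LKO, without overlap (log2 fold change 1.05, standard error 0.24). Its adjusted p was 0.697 by edgeR, 0.0169 by DESeq2 and 0.0373 by exactTest. Irgm1, of the same family, had 31.8 ± 2.87 and 45.0 ± 10.3 CPM (SD, n = 3 each) and overlapped. Irf1 had a log2 fold change of -0.09 and Cxcl9 of 0.27. Of 5 costimulatory genes tested, 0 passed by edgeR, DESeq2 or exactTest, 0 had an unadjusted p under 0.05 and all 5 had a positive log2 fold change, with a median of 0.40. Cd86 had 2.08 to 4.46 CPM, lowest in Fpn-LKO replicate 2 and highest in replicate 3, as for the sum of the 4 abundant class II genes.

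Over all the related lists, cell markers included, 105 of 136 genes were tested. None passed by edgeR, 2 passed by DESeq2 (Pdia3 and Igtp) and 1 by exactTest (Igtp). At an unadjusted p under 0.05 there were 10 higher and 2 lower, or 11.4%, where 4.80% of all genes were so (2.62% higher and 2.19% lower). The lists were chosen with earlier results of these data known, so these shares are a description only. The 7 sinusoidal endothelial markers summed to 353 ± 38.2 CPM in LT livers, against 309 ± 6.93 in livers labelled Fpn-LKO (SD, n = 3 each), without overlap (exact two-sided permutation test, p = 0.1). Of the 7, 5 had a negative log2 fold change, and each gene on its own overlapped. Lyve1 had 1.30 and Pecam1 0.34, and Lyve1 was the only one with an unadjusted p under 0.05. The 7 hepatocyte markers summed to 59981 ± 7904 CPM in LT livers, against 61164 ± 4304 in livers labelled Fpn-LKO (SD, n = 3 each), which overlapped (exact two-sided permutation test, p = 0.8). Their log2 fold change was positive for 5 and negative for 2. Of them Hnf4a did not overlap, with 251 ± 13.1 and 313 ± 28.9 CPM, and the other 6 did, among them Alb with 0.01 and Apoa1 with -0.23. Over all genes tested, 5.25% were higher without overlap. Of 7 genes of pancreas and blood, 3 were at 0 reads in all 6 libraries and 4 were tested. Cela2a, with 0 to 62 reads, was lower without overlap (unadjusted p = 0.0406 by edgeR). Alas2 was higher but overlapped (unadjusted p = 0.0475 by edgeR). Hbb-bs had 180, 424 and 132 CPM in LT livers, against 469, 593 and 208 in livers labelled Fpn-LKO. The list had mean sums of 408 and 657 CPM, which overlapped (exact two-sided permutation test, p = 0.2). The part of cell composition in the class I values was not tested.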

How the data were processed

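Whole-liver RNA-seq libraries, 3 per genotype, were grouped by the sample labels. The authors aligned reads to mm10 and deposited 1 read count, FPKM and TPM per RefSeq gene and library. The submitters' processing notes list HISAT2 2.1.0, Bowtie2 2.3.4.1 and StringTie 2.1.3b. The methods describe rRNA-depleted libraries, whereas the labels name an mRNA kit. Whether counting used strand is not given in the sources used here. Deposited FPKM values, scaled for length and depth, were not used. Deposited TPM values served for levels between genes and for limma. The members and gene lists were chosen with earlier results of these data known.

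The deposited counts entered edgeR 4.0.16 (R 4.3.3), quasi-likelihood, after TMM scaling. A gene could have at most 1 library with 0 reads, as in the methods, which name exactTest. Standard errors came from the F statistic, and p-values were adjusted by Benjamini-Hochberg over 17274 genes. CPM are counts over TMM-scaled library sizes. Where nothing else is said, p-values measure the spread between 3 mice per group. The alternatives used RLE factors, DESeq2 1.42.0 (independent filtering turned off), exactTest, every gene with a read, filterByExpr, a replicate block, limma 3.58.1 on log2 TPM with a pseudocount of 1 or 0.1 where the mean TPM reached 1, and leaving out each mouse. The tests were tried on simulated data. Near-identical transcripts were searched with BLAST 2.17.0 in GENCODE M21.

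Genes that could be named were Slc40a1, the members, those of the class II, class I, loading and immunoproteasome lists, up to 3 of the most abundant and up to 3 with the smallest p of each other list, and up to 5 nearest in profile. Other genes were chosen after their values were seen: Ctss, Xcr1, Flt3, Ms4a1, Cd3e, Cd8a, Ncr1, Ly6g, Mpo, Ifng, Cxcl9, Irf1 and the 6 complex pairs. Coordinates are those of RefSeq GRCm38.p6, the same build as mm10.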

Additional observations from a re-analysis of the deposited data

How the results depend on the processing

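Of the 9 members, 0 passed an adjusted p of 0.05 under any alternative. The limma fits covered 7 of them, since H2-DMa and Ciita had a mean under 1 TPM. The count over all genes, 4 (4 higher, 0 lower), was 72 by DESeq2 (49 higher, 23 lower), 63 by exactTest (44 higher, 19 lower), 7 by limma on log2(TPM + 0.1), and between 0 and 6 when 1 library was left out (0 without LT replicate 2, 1 without LT replicate 1, LT replicate 3 or Fpn-LKO replicate 2, 6 without Fpn-LKO replicate 3). The cause was not tested. The count of related genes, 0, was 2 by DESeq2 and 1 by exactTest. With the replicate number as a block it was 0 genes over all genes and 0 members. Deviations of same-numbered libraries correlated at 0.13, -0.01 and 0.04 over genes, and 1 of the LT livers, replicate 1, correlated best with its own number, so the numbers were not taken to pair the mice. Leaving out 1 library turned the log2 fold change of H2-Ab1 (-0.11 to 0.36), Cd74 (-0.11 to 0.36), H2-DMa (-0.26 to 0.013) and Slc40a1 (-0.11 to 0.14), namely H2-Ab1 without LT replicate 3, Fpn-LKO replicate 1 or Fpn-LKO replicate 3, Cd74 and Slc40a1 without LT replicate 3 or Fpn-LKO replicate 3, and H2-DMa without Fpn-LKO replicate 2. The class II median lay between -0.11 (without Fpn-LKO replicate 3) and 0.35 (without Fpn-LKO replicate 2). H2-Aa stayed between 0.11 and 0.73, H2-K1 between 0.25 and 0.36 and B2m between 0.42 and 0.53. The adjusted p of B2m ranged from 0.0652 to 1.00. At an unadjusted p under 0.05, 3 of the 7 members covered passed in each limma fit. Without Fpn-LKO replicate 2 it was 3 of 9 by edgeR, and without LT replicate 3 it was 2 of 9. The share of all genes at this threshold was not taken for these fits. Depth limits H2-DMa and Ciita, with 72 to 167 reads per library.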
